A study of Mus musculus with 12 samples.

Results

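The histone genes of the Hist1, Hist2 and Hist3 clusters were followed across the cell classes of 6 mouse mammary tumours. Members were all genes of the deposited tables whose symbol starts with Hist1h, Hist2h or Hist3h, a rule on names that used no measured value. It found 36 of 19369 genes in the Total libraries and 33 of 18574 in the CD45 libraries. Of the 36, 6 encode the linker histone H1, 9 H2A, 10 H2B, 7 H3 and 4 H4.

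4T1 is a triple-negative mammary carcinoma line of the mouse. It gave 5 clones grown from single cells (E, EM1, EM2, EM3 and M), and these and the parental line were implanted in the mammary fat pad of female BALB/c mice of 9 to 11 weeks, and no treatment is named in the labels. The clones are described as lying between an epithelial and a mesenchymal state, each clone is 1 line, and each of the 6 groups is 1 tumour. Every tumour gave a Total library and a library of cells taken with magnetic beads against the leukocyte antigen CD45. No replicate tumour exists for a clone, so clones were not tested against each other, and tests compare cell classes or cell ranges over the 6 tumours as blocks. Their p-values measure the spread over these tumours, which differ in the cells implanted.

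Replication-dependent histone genes supply the protein that packs newly made DNA. Their transcripts rise in S phase and, unlike other mRNAs, usually end in a stem-loop instead of a poly(A) tail. The factor NPAT switches the genes on in histone locus bodies, and SLBP binds the stem-loop and takes part in processing, export and translation. Core histones H2A, H2B, H3 and H4 form the nucleosome, and H1 binds the DNA between nucleosomes. Some members, among them Hist1h2bc, Hist1h1c and Hist2h2be, can also give polyadenylated transcripts in cells that do not divide. The labels' protocols name both a fixed-RNA preparation and 3′ reagents, so the labels do not settle whether capture needed a poly(A) tail. The barcodes run beyond 16 bases, and some libraries share the first 16 but no full barcode, as given below. This bears on the preparation used, which was not tested. Levels are compared between cells rather than read as absolute amounts.

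All 36 members were found in the GENCODE M21 annotation of GRCm38, 29 of them on chromosome 13, 5 on chromosome 3 and 2 on chromosome 11, and 33 have a single exon in every annotated transcript. The label "replication-dependent" does not cover all of them. Hist1h1t, Hist1h2aa and Hist1h2ba are known as testis histones that share the prefix. In tumour cells Hist1h1t lay between 1.13 and 5.76 CPM (the count of a gene per 1000000 counts of the same cells), Hist1h2aa reached at most 0.75 CPM and Hist1h2ba at most 0.38 CPM. For 18 members another histone gene of the annotation has a coding sequence at least 98% identical, so their counts are uncertain as single genes. The coding sequence of Hist1h2ap, for example, is identical to that of Hist1h2ao, which is not in the tables. Hist1h2be (chromosome 13, 23583670 to 23621124) overlaps the end of Hist1h1e (23620629 to 23622558) on the same strand.

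The regions upstream of 31 members were matched in RefSeq (build GRCm38.p6), as 250 bases before the start site. The TATA word TATAAA was found on either strand in 16 of the 31 (51.6%), against 12.4% of all 32851 windows of that length. CCAAT stood in 28 (90.3%, against 33.8% of all windows), and the octamer ATTTGCAT in 9 (29.0%, against 1.60%), of which 5 belong to H2A and 4 to H2B genes. Windows of neighbouring genes can overlap, so a site can count for more than 1 gene. Those of Hist1h2ae and Hist1h2bg hold the same octamer and the same TATAAA. The H1 word AAACACA, added after the sequences had been seen, stood in 8 (25.8%, against 6.25%), including 5 of the 6 H1 genes. The bases before the start of the 4 H1 genes and the H3 gene on which the results turn are shown 5′ to 3′, with the words above in capitals whichever strand they match.
Hist1h1e, chr13:23622559-23622708, minus strand: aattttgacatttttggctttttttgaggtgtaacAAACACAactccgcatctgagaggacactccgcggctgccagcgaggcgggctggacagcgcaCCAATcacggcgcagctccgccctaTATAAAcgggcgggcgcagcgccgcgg
Hist1h1b, chr13:21780626-21780775, minus strand: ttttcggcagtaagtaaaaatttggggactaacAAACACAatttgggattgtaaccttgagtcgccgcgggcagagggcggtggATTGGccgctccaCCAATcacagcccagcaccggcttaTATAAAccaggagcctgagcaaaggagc
Hist1h1d, chr13:23554882-23555031, plus strand: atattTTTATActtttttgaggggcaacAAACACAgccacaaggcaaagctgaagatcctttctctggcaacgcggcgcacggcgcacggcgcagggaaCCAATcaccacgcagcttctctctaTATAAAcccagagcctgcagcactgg
Hist1h1a, chr13:23763518-23763667, plus strand: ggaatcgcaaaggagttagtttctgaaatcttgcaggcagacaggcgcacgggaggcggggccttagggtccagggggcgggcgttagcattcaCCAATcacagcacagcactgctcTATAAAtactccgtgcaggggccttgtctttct
Hist1h3c, chr13:23745522-23745671, minus strand: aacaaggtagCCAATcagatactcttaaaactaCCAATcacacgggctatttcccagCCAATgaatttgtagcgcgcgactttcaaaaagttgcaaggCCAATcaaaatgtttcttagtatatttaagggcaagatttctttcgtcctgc
The 4 H1 genes shown each have a CCAAT word followed by TATAAA, whereas the windows of Hist1h1c and Hist1h1t hold no TATAAA. Of the 6 H1 genes, Hist1h1a is the one whose window lacks AAACACA. Hist1h3c has 4 CCAAT words and no TATAAA in the stretch shown. A matching word is not a measured binding site.

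The 12 libraries held 28083101 to 122055131 unique molecular identifiers (UMIs, each marking 1 captured molecule) in 6709 to 13467 cells each. Doublet calls removed 3282 of 115612 cells (2.84%). Full cell barcodes were shared by 12 of the 66 library pairs, 84 to 189 per pair and at most 1.89% of the smaller library. The first 16 bases of the barcode, without the rest, were shared by 1345 to 1760 barcodes per pair among the libraries of E and EM3, by 818 to 1332 among those of EM1 and EM2, by 1450 between both libraries of M and by 1112 between both of the parental tumour, and by 46 to 211 in the other pairs. No full barcode was shared within these sets of libraries. Class names are the authors' and may themselves rest on cycling genes. Annotated tumour cells carried 2899 to 6353 CPM of 7 summed tumour markers and 58.0 to 277 CPM of 6 summed macrophage markers, and the macrophages of the Total libraries carried 79.8 to 241 and 7845 to 13995 CPM.

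The level of histone transcripts was highest in T cells annotated as dividing. In the CD45 libraries the class annotated as Mki67+ Cd8/Cd4 T cells, named for the proliferation antigen Ki-67, held 14004, 13734, 15481 and 12837 CPM of summed members in the tumours E, EM1, EM2 and EM3. The median was 1.39% of all UMIs of these cells, and the class held 59 to 140 cells in these tumours. Only 13 such cells were annotated in each of Clone M (12387 CPM) and the parental tumour (10779 CPM). All 6 values lay above 4851 CPM, the highest value of any other class with at least 50 cells.

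The class that held this value was the CD45 class annotated as Other Myeloid, with a lowest value of 2356, a median of 3700.0 and a highest of 4851 CPM over the 6 tumours. Its macrophage markers summed to 9930 to 14684 CPM. Plasma cells reached 4615 CPM in EM1, the 1 tumour with at least 50 of them, above the 3894 CPM of Other Myeloid cells there. With under 50 cells they held 5298 CPM in E and 6170 CPM in EM2, also above the Other Myeloid cells of these tumours (2356 and 4108 CPM). The CD45 B cells as a whole, plasma cells included (median 2456 CPM, 5 tumours), and the T cells as a whole, Mki67+ cells included (2164 CPM), followed.

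At the other end stood macrophages and granulocytes of the CD45 libraries. Macrophages held 142, 211 and 293 CPM (lowest, median and highest tumour) and granulocytes 297, 372 and 466 CPM. The highest value of each of these classes lay below the lowest value of the Other Myeloid class. The T and B cell subtypes other than Mki67+ T and plasma cells had medians between those of these classes and Other Myeloid cells. They were 425 CPM in Cd44- Cd4+, 514 CPM in Lef1+ Cd8+, 516 CPM in Cd44+ Cd4+, 632 CPM in Foxp3+ Cd4+ and 831 CPM in Gzmb+ Cd8+ T cells. Cd44-MHCIIhi B cells had a median of 539 CPM, and Cd25+Cd69+ B cells held 1648 CPM in the 1 tumour with at least 50 of them.

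In the Total libraries T/NK cells led with a lowest value of 1016, a median of 2111 and a highest of 3460 CPM. B cells followed with a median of 1060 CPM over 5 tumours. Tumour cells, dendritic cells, endothelial cells and macrophages had medians of 708, 696, 652 and 645 CPM, and their ranges overlapped. Granulocytes had a median of 532 CPM and fibroblasts one of 318 CPM, and the cells annotated as Unknown held 382 CPM in the 1 tumour with at least 50 of them. Fewer S-phase cells and fewer transcripts per S-phase cell cannot be told apart in such sums.

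**Figure D1:**
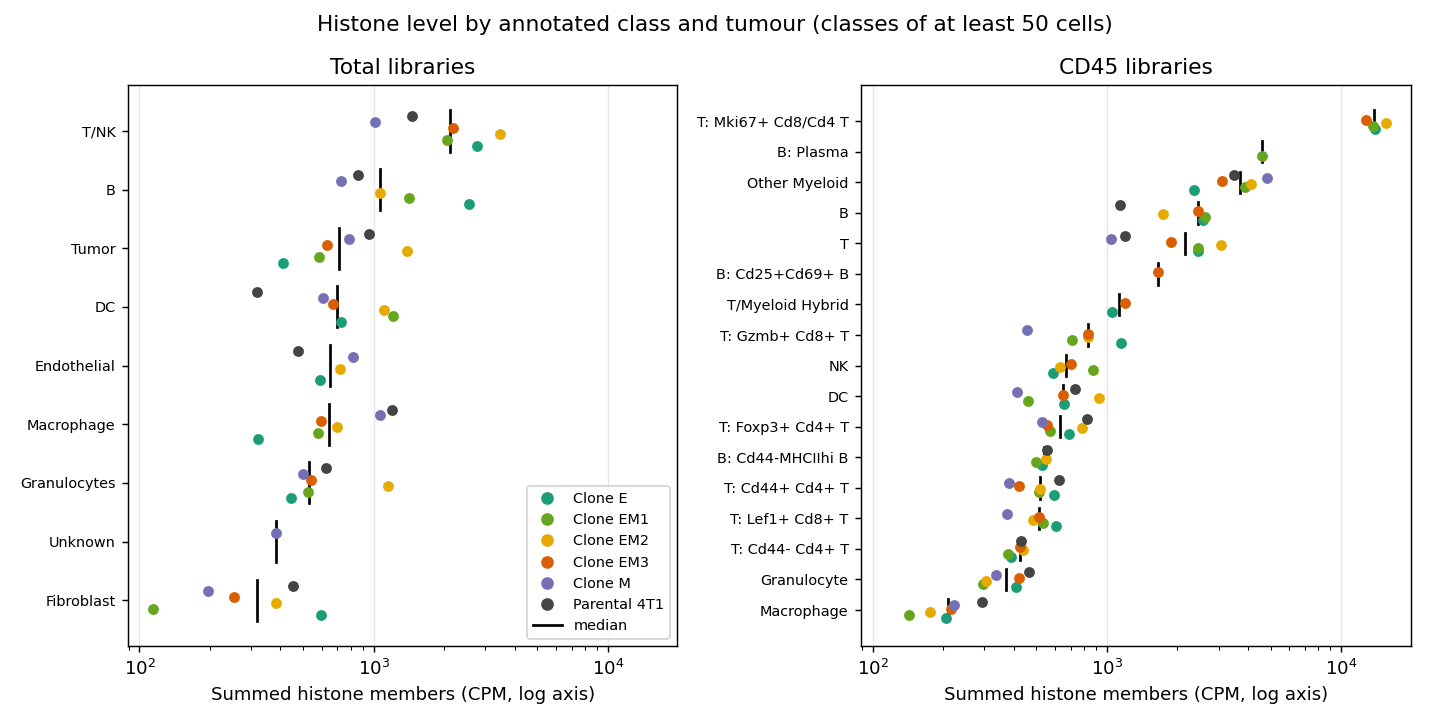
Summed CPM of the histone members (log axis) by annotated class, Total libraries on the left and CD45 libraries on the right. Each point is 1 tumour with at least 50 cells of the class and each line the median; the Mki67+ T cells stand at 12837 to 15481 CPM, and the macrophages of the CD45 libraries at 142 to 293 CPM.

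Between tumours the tumour cells differed more than 3-fold. Summed members stood at 409 CPM in Clone E (95% Poisson interval 392 to 427), 587 in EM1, 630.0 in EM3, 785 in M, 956 in the parental tumour and 1393 in EM2 (1382 to 1403). Intervals cover counting error only. Clone E tumour cells also stood apart in mitochondrial transcripts, with 1.41% to 1.99% of UMIs in their cell ranges by cycling genes against 0.29% to 0.72% in the other 5 tumours. Their granulocyte markers summed to 1815 CPM in a single range of 65 cells and to 546 to 595 CPM in the others, and those of Clone M reached 617 CPM. The part of mitochondrial transcripts and granulocyte markers in the low level of Clone E was not tested. The macrophages of the same libraries were lowest in Clone E as well, with 321 CPM, and highest in the parental tumour, with 1195 CPM.

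Shares of cells were counted as well. A cell was called histone-high when at least 5 of 1000 UMIs, drawn at random from the cell, came from members. In Mki67+ T cells 317 of 367 cells were histone-high, between 81.4% and 89.8% per tumour. In Other Myeloid cells it was 501 of 2123, between 14.7% and 32.7%. Plasma cells had 26 of 106. In the Total libraries the order of the classes was not that of their CPM throughout. Dendritic cells (median share 3.97%) and endothelial cells (3.45%) stood above B cells (2.19%), and fibroblasts (0.80%) above granulocytes (0.43%).

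Among tumour cells 727 of 19203 were histone-high. The share was 0.81% in Clone E, 2.02% in EM1, 2.59% in EM3, 2.76% in M, 4.27% in the parental tumour and 7.27% in EM2. Between 0.81% and 3.89% of tumour cells had 4 or 5 histone UMIs, next to the limit. Macrophages of the Total libraries ranged from 0.55% to 5.22%, whereas only 11 of 23596 macrophages of the CD45 libraries were histone-high.

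Most histone-high T cells carried the Mki67+ annotation. It held 71 of 88 such cells of the E tumour, 119 of 127 of EM1, 79 of 87 of EM2 and 48 of 56 of EM3. Of all histone-high cells of their CD45 library, Mki67+ T cells held 31.0% to 44.7% in these 4 tumours and Other Myeloid cells 33.1% to 56.5%, and Other Myeloid cells held 77.5% in Clone M and 77.0% in the parental tumour. In the Total libraries T/NK cells held 77.4% of the histone-high cells in Clone E but 2.94% in the parental tumour, and tumour cells 2.56% and 61.3%. Of the cells of these 2 libraries with at least 1000 UMIs T/NK cells made up 30.7% and 5.96%, and tumour cells 8.13% and 58.0%. The parental share of tumour cells was thus close to their share of those cells. In other classes, 14 of 6445 CD45 granulocytes, 4 of 857 Lef1+ Cd8+ T cells and 26 of 1503 Gzmb+ Cd8+ T cells passed. A single member UMI among 1000 was found in every class, least often in CD45 macrophages (12.7% to 23.8%). It was found in 18.5% to 30.6% of CD45 granulocytes (21.4% to 39.8% without thinning, at a median of 690.0 to 1220.0 UMIs per cell) against 96.6% to 100% of Mki67+ T cells (median 3281 to 5764 UMIs). Cells with under 1000 UMIs were left out, 7014 granulocytes among them.

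A few members made up nearly all of the signal. Hist1h1e (chromosome 13, 23620629 to 23622558), an H1 gene, alone held 38.0% of the summed CPM of tumour cells. It stood at 120.1, 193, 612, 269, 251 and 362 CPM in E, EM1, EM2, EM3, M and the parental tumour. Together with Hist1h2ap, Hist1h2bc, Hist1h2ae, Hist1h2bn and Hist1h1b it accounted for 90.0%. Of the 36 members 7 averaged at least 10 CPM in tumour cells and 12 averaged under 1 CPM, although each had at least 1 UMI there.

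Levels of different genes were also set out per kilobase of coding length. Where a UMI marks 1 captured molecule whatever its length, this scale lowers the longer H1 genes against H2A and H2B genes. Since the labels do not settle the preparation, how capture differs between genes is not known, and the order of genes is a description. Without it Hist1h1e averaged 301 CPM in tumour cells and Hist1h2ap 143 CPM. On the scale per kilobase Hist1h1e led in tumour cells with a mean of 459 CPM per kb, followed by the H2A genes Hist1h2ap (366) and Hist1h2ae (177) and the H2B genes Hist1h2bc (228) and Hist1h2bn (174). The second H1 gene was Hist1h1b, with 73.5 CPM per kb. The highest H3 gene was Hist1h3c, with 16.4 CPM per kb, and the highest H4 gene Hist1h4a, with 12.1.

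The histone types were therefore represented unequally, although the nucleosome holds its core histones in equal number. H1 genes took a median of 42.8% of the histone CPM of tumour cells, H2A 28.7%, H2B 22.7%, H3 1.93% and H4 1.36%. In Mki67+ T cells the medians were 46.7%, 39.4%, 11.1%, 2.32% and 0.12%. Coverage of H3 and H4 depends on which members the tables hold, since 69 genes with these prefixes are annotated.

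In Mki67+ T cells, 28 of the 33 members had at least 1 UMI and the leading genes were nearly those of tumour cells. Hist1h1e stood at 4079, 3513, 4172 and 3859 CPM in E, EM1, EM2 and EM3. Hist1h2ap reached 3377, 3801, 4206 and 3043 CPM in the same order. Each of these tumours gave more than 3000 CPM of both genes.

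Hist1h2ae, another H2A gene, had 1728, 1621, 1992 and 1583 CPM there, and the H2B gene Hist1h2bn 1428, 1531, 1729.5 and 1268 CPM. Of the H1 genes, Hist1h1b had 1572, 1344, 1348 and 1228 CPM. Hist1h1a had 674, 972, 1006 and 816 CPM, whereas its highest value in tumour cells was 5.26 CPM. Hist1h2bc, one of the 3 leading genes of tumour cells, stood at only 66.6, 8.84, 21.2 and 21.5 CPM. The 6 leading members, in which Hist1h1a takes the place of Hist1h2bc, held 92.6%.

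To ask which phase the histone signal goes with, cells were ranked within each tumour by 38 S-phase genes and by 49 G2/M genes, none of which is a member, after thinning to 3000 UMIs. Cells in the highest 20% for the S list but not for the G2/M list were called S, the reverse G2M, cells below the median of both low, and, in a range added after seeing the data, cells in the highest 20% of both lists were called double-high. The lists are genes known from cycling cells, and a range is a stretch of a continuous score: 7.65% to 17.6% of tumour cells and 20.8% to 34.2% of macrophages lay at the S limit or 1 UMI below it. Histone transcripts were highest in cells high for both lists. Summed members had medians of 338 CPM in low tumour cells, 312 in S, 1099 in G2M and 2679 in double-high cells.

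The double-high tumour cells ranged from 1069.8 CPM in the lowest tumour to 5045 in the highest, and the low cells from 287 to 388 CPM, so these ranges did not overlap. Within a tumour double-high cells held between 3.42 and 13 times the level of low cells. S cells held 0.89 to 2.20 times that level, the highest ratio being that of EM2. Double-high ranges held 62 to 661 cells per tumour. Their median depth was 8275 to 20701 UMIs per cell, against 7332 to 15112 in low cells.

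Macrophages behaved alike in this respect, with medians of 213 CPM in low, 195 in S, 540.0 in G2M and 3513 CPM in double-high cells. Their double-high cells held 5.29 to 21.3 times the level of low cells, and S cells 0.73 to 1.08 times. With cells split into 5 bins by each list, the highest G2/M bin of tumour cells had medians of 639, 675, 1017, 1367 and 2679 CPM from the lowest to the highest S bin. In macrophages these were 374, 369, 559, 825 and 3513 CPM. Outside the highest G2/M bin the medians stayed between 286 and 397 CPM in tumour cells and between 185 and 255 CPM in macrophages. Single tumours went beyond these medians. EM2 tumour cells reached the highest value, with 523, 522, 554, 882 and 1144 CPM in the next G2/M bin from the lowest to the highest S bin. Parental tumour cells held 549 CPM in the highest S bin there.

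**Figure D2:**
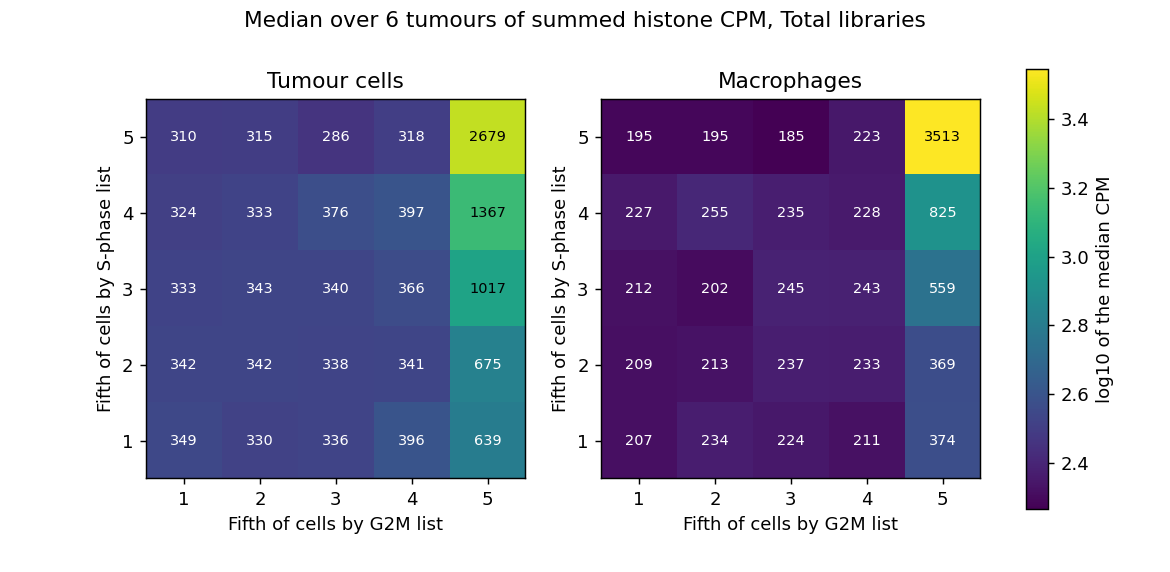
Summed histone CPM, as the median over the 6 tumours, of tumour cells and of macrophages split into 5 equal bins by the S list and 5 by the G2/M list within each tumour. The corner highest for both lists holds 2679 CPM in tumour cells and 3513 in macrophages, against 318 and 223 in cells of the highest bin of the S list and the next bin of the G2/M list.

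The planned comparison of S with low tumour cells found few members higher. edgeR's quasi-likelihood test with Benjamini-Hochberg adjustment over all genes tested 17 members; 4 were higher and 1 lower (background over 11094 genes: 19.0% higher, 23.8% lower), so the share higher was close to that of all genes. Hist1h1b was higher by a log2 fold change of 1.69 ± 0.30 (SE, n = 6 tumours, adjusted p = 0.00051). It rose from 5.22, 5.03, 6.98, 3.88, 3.58 and 3.60 CPM in low cells of E, EM1, EM2, EM3, M and the parental tumour to 6.28, 10.2, 57.8, 5.43, 6.24 and 14.8 CPM. All 6 tumours moved the same way, EM2 by far the most.

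Hist1h2bn (0.75 ± 0.19, adjusted p = 0.0065) and Hist1h1e (0.54 ± 0.10, adjusted p = 0.0010) were also higher. Hist1h2ae passed (0.75 ± 0.21, adjusted p = 0.012) although it was higher in only 3 of 6 tumours. The member that was lower was Hist1h2bc, by -0.92 ± 0.10 (adjusted p = 7.0e-06) and in 6 of 6 tumours, and 2 of 5 granulocyte markers (median -0.75), 3 of 4 fibroblast markers (median -0.35) and 1 of 6 macrophage markers (median -0.24) were lower with it. By contrast 1 of 2 T cell markers tested (median 0.49) and 1 of 2 endothelial markers tested (median 0.23) were higher. With the highest 10% in place of 20%, 8 members were higher and 2 lower. Among the members that did not pass were Hist1h2af at 0.53, Hist1h2be at -0.62, Hist1h2ac at -0.48, Hist3h2a at -0.47 and Hist1h3d at -0.44.

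Against G2M cells the S cells were lower. Of 19 members tested, 16 were lower and 0 higher (background 11.6% lower, 11.8% higher), a larger share lower than that of all genes. A member that passes the filter on low counts through the G2M cells alone adds to the count of lower ones, and S against low tested 17. Hist1h1b differed by -2.59 ± 0.14 (adjusted p = 1.1e-11) and Hist1h1e by -1.85. The value of Hist1h3c (-2.43) is a description, since it did not pass the filter in S against low cells and passed it here with the G2M cells. The 3 that did not pass were Hist1h2bg, Hist1h4a and Hist2h4. At an unadjusted p under 0.05 the count of higher members was also 0.

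Double-high tumour cells against low ones gave the clearest contrast. Of the 36 members 21 passed the filter on low counts, of which 13 were higher and 1 lower (background over 11407 genes: 23.0% higher, 28.8% lower). The median log2 fold change of the members tested was 1.43, and that of all genes tested -0.05. A member that passes the filter through its high range alone adds to such a count. Hist1h1c, Hist1h1t, Hist1h3c and Hist1h4j passed it here but not in S against low cells.

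Of the H1 genes, Hist1h1b, Hist1h1e and Hist1h1d were higher. Hist1h1b rose from the values given above to 94.5, 195, 492, 205, 276 and 247 CPM in E, EM1, EM2, EM3, M and the parental tumour, a log2 fold change of 5.91 ± 0.14 (adjusted p = 1.0e-11). Hist1h1e rose from 98.4, 89.6, 181, 113, 63.1 and 95.8 to 326, 804, 2042, 1114, 1005 and 1261 CPM, by 3.31 ± 0.22 (adjusted p = 1.1e-07). Every tumour's double-high value exceeded every low value for both genes. Hist1h1d rose by 3.63. The values of Hist1h1c (2.81) and the testis gene Hist1h1t (1.90 ± 0.50) are a description, since both passed the filter through the double-high range.

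Of the H2A genes, Hist1h2ap rose from 26.1, 52.9, 51.2, 25.9, 29.2 and 42.8 CPM to 163, 481, 1168, 606, 588 and 688 CPM, a log2 fold change of 4.00 ± 0.20 (adjusted p = 7.3e-09). Hist1h2ae rose by 4.31 ± 0.18 and Hist1h2af by 4.05 ± 0.18. Hist1h2ac (0.07) and Hist3h2a (-0.12) did not pass, so the H2A genes were divided. The H2B gene Hist1h2bn rose from 16.4, 12.7, 21.5, 15.3, 13.2 and 18.0 CPM to 72.4, 252, 495, 288, 308 and 299 CPM, by 4.22 ± 0.15.

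Hist1h2bc, another H2B gene, went the other way. It stood at 70.8, 107, 58.9, 79.9, 167 and 114 CPM in low cells and at 113, 55.9, 15.4, 29.6, 45.6 and 53.1 CPM in double-high cells, a log2 fold change of -1.33 ± 0.19 (adjusted p = 0.00013). Clone E, with the fewest double-high cells, was the tumour in which it was higher. Markers of some other cell types were lower as well, with 5 of 5 fibroblast markers (median -0.48), 2 of 6 macrophage markers (median -0.33), 4 of 5 granulocyte markers (median -1.22) and 1 of 2 dendritic cell markers tested (median -0.32). By contrast 1 of 3 T cell markers tested (median 0.28) and 1 of 2 endothelial markers tested (median 0.36) were higher. Granulocyte markers had a summed level of 230.2 to 617 CPM in low and 54.0 to 595 CPM in double-high tumour cells. In Clone E they summed to 546 CPM in low and 595 CPM in double-high cells. The part of other cells' transcripts in the change of Hist1h2bc was not tested. Hist1h2be (0.22) and Hist1h2bg (0.05), the other H2B genes tested, did not pass.

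Of the H3 genes, Hist1h3c held 0.75, 0.25, 0.65, 0.12, 0.40 and 0.72 CPM in low cells and 12.1, 31.2, 61.6, 25.6, 32.0 and 39.2 CPM in double-high cells. Its log2 fold change of 6.21 ± 0.19 is taken over low cells near 0 CPM. It passed the filter here but not in S against low cells, that is through the range where it is high, so its fold is not ranked against those of other members. The other H3 genes moved less, Hist2h3c1 by 1.43 ± 0.30 (adjusted p = 0.0019) and Hist1h3d by 0.76 ± 0.24 (adjusted p = 0.017). Of the H4 genes Hist1h4i rose by 1.04 ± 0.27 (adjusted p = 0.0072), while Hist1h4a (0.22), Hist1h4j (0.64) and Hist2h4 (0.05) did not pass.

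**Figure D3:**
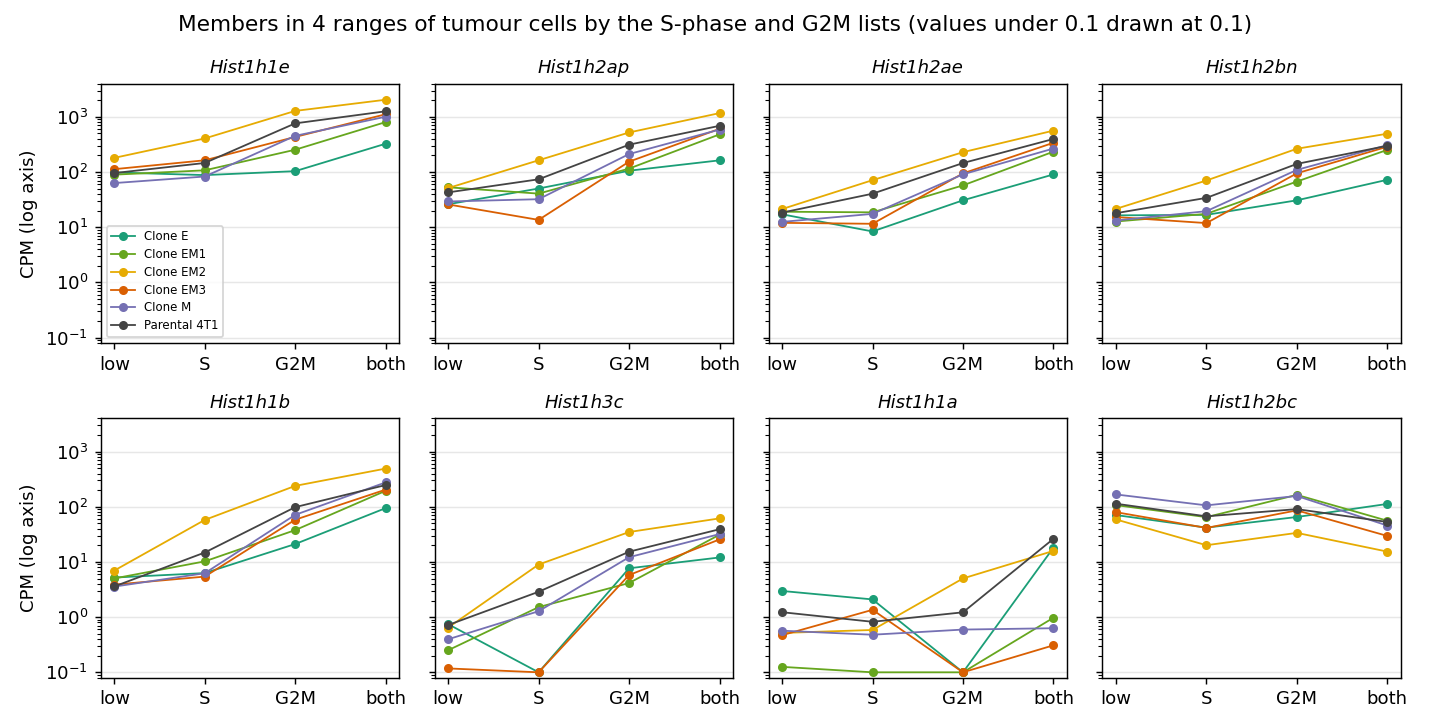
CPM (log axis, values under 0.1 drawn at 0.1) of 8 members in low, S, G2M and double-high tumour cells, 1 line per tumour. Hist1h1b reaches 94.5 to 492 CPM in double-high cells, whereas Hist1h2bc stands at 15.4 to 113 CPM there and at 58.9 to 167 CPM in low cells.

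Double-high cells also exceeded G2M cells. Of 21 members tested 10 were higher and 1 lower (background 11.1% and 9.45%). The higher ones were led by Hist1h1b (1.57), Hist1h2ae (1.55), Hist1h2ap (1.44) and Hist1h3c (1.33), and Hist1h1e was higher by 1.10. The lower one was again Hist1h2bc, at -1.26, while 0 of 4 granulocyte markers tested passed (median -0.39). Both comparisons use the same double-high cells.

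Most of the listed genes that make and carry histones were higher in the same tumour cells. Of 15 genes for transcription and 3′ end processing of histone mRNA, 12 were higher and 0 lower in double-high cells than in low ones (background 23.0% higher, 28.8% lower). Slbp, the stem-loop binding protein, rose by 0.87 ± 0.09 (adjusted p = 7.6e-06) and Npat by 0.48 ± 0.09. Eri1, an exonuclease that trims the histone stem-loop, rose by 0.98, Casp8ap2 by 0.75, Lsm11 of the U7 particle by 0.47 and Zfp473 by 1.59. Lsm10, Sympk and Coil did not pass. These increases were smaller than those of most histone members that passed.

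Of 16 histone chaperones and carriers 12 were higher and 0 lower, against the same background of 23.0% and 28.8%. Asf1b, which hands H3 and H4 to assembly factors, rose by 4.57 ± 0.13, and the assembly factor subunits Chaf1a and Chaf1b by 3.46 and 3.02. Mms22l (3.75), Tonsl (1.98) and the histone acetyltransferase Hat1 (1.78) followed. Asf1a, Daxx, Atrx and Ipo4 did not pass.

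Of 10 histone genes tested that are expressed outside replication, 7 were higher and 1 lower (background 23.0% and 28.8%). Cenpa, the centromeric H3 and also one of the G2/M genes used to rank cells, rose by 3.75, H2afz by 1.87, H2afx by 1.64, H1f0 by 1.62, H2afv by 1.13, H3f3b by 0.40 and H2afy by 0.29. H2afj fell by 0.35. The rankings fix the direction of their own genes, among them Pcna (1.82), Mcm5 (3.85), Mki67 (5.53) and Top2a (5.47).

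In macrophages 17 members were tested between double-high and low cells, of which 11 were higher and 3 lower (background 25.4% and 29.1%). Hist1h1b rose by 5.78 ± 0.20, Hist1h3c by 5.84 ± 0.22, Hist1h2ae by 5.51 ± 0.18, Hist1h2ap by 5.16 ± 0.20, Hist1h2bn by 5.00 ± 0.23 and Hist1h1e by 3.36 ± 0.24. Hist1h1a rose by 6.04 ± 0.30 (adjusted p = 6.2e-10), from 1.35 to 6.28 CPM in low cells. Of the 17, Hist1h1c, Hist1h1d, Hist1h2ac, Hist1h2af, Hist1h3c and Hist1h3d did not pass the filter in S against low macrophages and passed it here with the double-high cells, so the count of 11 is a description. Those lower were Hist1h2bc (-0.77), Hist2h3c1 (-0.79) and Hist3h2a (-0.92), and 4 of 5 granulocyte markers (median -0.96), 4 of 6 macrophage markers (-0.26), 3 of 4 fibroblast markers (-0.58) and 3 of 4 tumour markers (-0.57) were lower as well. In S against low macrophages 0 of 11 members were higher and 3 lower by edgeR (background 9.45% and 12.6%), namely Hist1h1e (-0.32), Hist1h2bc (-0.57) and Hist3h2a (-0.62). At an unadjusted p under 0.05 these counts were 1 and 4, and with DESeq2 0 and 1. That result depended on the ranges: with the highest 10% in place of 20%, or with 1500 UMIs per cell, 6 members were higher. With the ranges of 20%, 4 of 5 granulocyte (median -0.50), 2 of 6 macrophage, 1 of 4 fibroblast and 1 of 2 endothelial markers tested were lower in S macrophages. The 1 dendritic cell marker tested was higher (0.77), and of 2 B cell markers tested 1 was higher and 1 lower. Their part in the calls of members was not tested.

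The change from low to double-high cells was then compared between both classes, as an interaction over the 6 tumours. Of 23 members tested, 2 had a larger and 4 a smaller log2 fold change in tumour cells (background 6.19% and 17.0%, with a median of -0.13 over all genes). The share smaller was close to that of all genes. Hist1h2ae (4.31 in tumour cells, 5.51 in macrophages) and Hist1h2ap (4.00 and 5.16) differed by -1.32 ± 0.30 (adjusted p = 0.0039) and -1.28 ± 0.31 (adjusted p = 0.0059). Hist1h2bn differed by -0.89 ± 0.32 (adjusted p = 0.047), a call lost without any one of EM1, EM2, EM3, M or the parental tumour (adjusted p between 0.089 and 0.173). The fourth was Hist1h1a, at -2.29 ± 0.81 (adjusted p = 0.048), which passed the filter in the joint fit but not among tumour cells alone, so that nothing is read from its difference. The count of 4 smaller fell to 2 without EM1, EM2, EM3 or M.

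Larger in tumour cells were Hist2h3c1, by 2.14 ± 0.44 (adjusted p = 0.0019), and Hist1h4i, by 1.44 ± 0.40 (adjusted p = 0.013), the latter not without EM2 (adjusted p = 0.0501) or the parental tumour (adjusted p = 0.161). Hist2h3c1 went from 5.22, 2.64, 1.68, 2.47, 2.50 and 1.82 to 12.1, 2.27, 8.87, 4.01, 5.56 and 8.69 CPM in tumour cells. In macrophages it went from 3.14, 2.71, 6.68, 3.40, 6.41 and 5.91 CPM to at most 4.85 CPM. Both genes stayed under 20 CPM in every range of both classes.

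**Figure D4:**
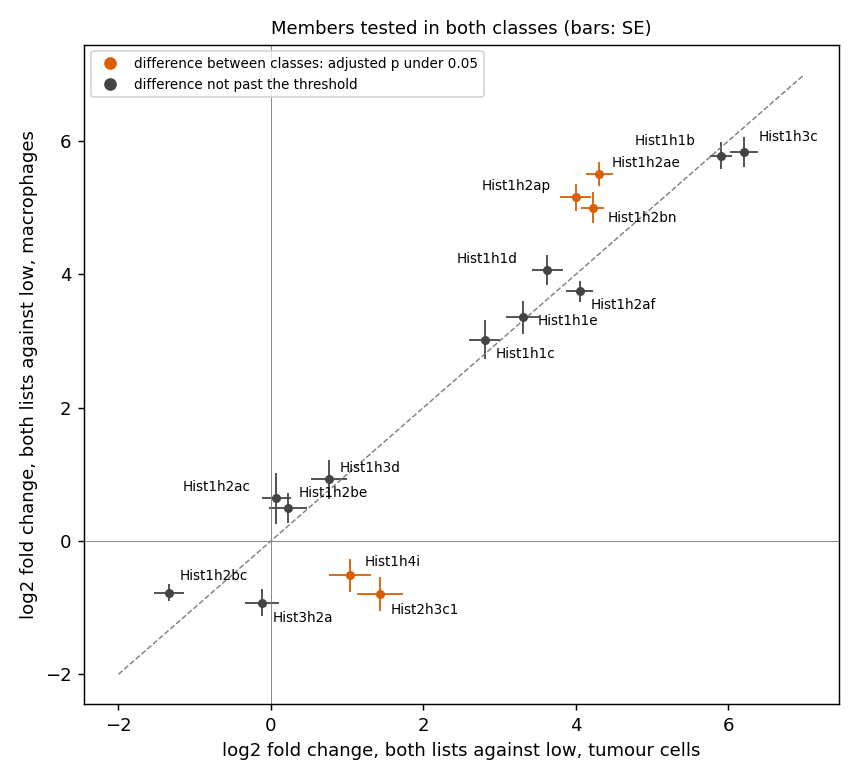
Log2 fold change from low to double-high cells in tumour cells (horizontal axis) and in macrophages (vertical axis) for the members tested in both classes, with bars of 1 SE and a dashed line of equality. Members whose difference passed an adjusted p of 0.05 are orange: Hist1h2ae, Hist1h2ap and Hist1h2bn above the line, Hist1h4i and Hist2h3c1 below it; the calls of Hist1h2bn and Hist1h4i did not hold in every fit that left out 1 tumour.

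Hist1h1a (chromosome 13, 23763666 to 23764406) was lower in tumour cells than in the macrophages of their own libraries. It encodes an H1 variant, and no other histone gene of the annotation reaches 98% identity with its coding sequence. Tumour cells held 3.57, 0.22, 3.17, 0.42, 0.64 and 5.26 CPM in E, EM1, EM2, EM3, M and the parental tumour. The macrophages from these libraries held 12.6, 45.6, 45.5, 35.4, 80.3 and 89.8 CPM. The groups did not overlap. These values are a description, because the gene can enter a fit of both classes through the macrophages, where it is high. Other classes overlapped with tumour cells: CD45 macrophages held 3.60 to 6.15 CPM, CD45 granulocytes 4.15 to 12.6 CPM and fibroblasts 2.93 to 37.2 CPM.

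Among cycling cells the values were also apart. Double-high tumour cells held 18.1, 0.97, 15.9, 0.31, 0.63 and 26.3 CPM of Hist1h1a, and double-high macrophages 69.3, 325, 316, 271, 472 and 511 CPM. The 3 tumours with more than 10 CPM in tumour cells were E, EM2 and the parental line. Macrophage markers summed to 285.5, 66.6, 56.6, 183.5, 86.1 and 72.5 CPM in those double-high tumour cells, so that EM3, second in macrophage markers, held the least Hist1h1a; the part of such transcripts was not tested.

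As a share of H1 transcripts, Hist1h1a took 0.10%, 0.32% and 2.28% of H1 CPM in tumour cells (lowest, median and highest tumour). In macrophages of the Total libraries it took 7.67%, 16.1% and 19.0%, in endothelial cells a median of 17.3%, in CD45 B cells 17.0%, in Other Myeloid cells 16.4% and in Mki67+ T cells 15.1%. Fibroblasts, the other non-immune class of the stroma, had 5.26% to 13.3%. Lower medians were found in CD45 macrophages (5.43%), granulocytes of the Total libraries (4.75%) and NK cells (2.74%). The highest tumour-cell share lay below the lowest share of the classes just named except NK cells, whose lowest share was 0. Other classes overlapped with tumour cells too, among them Foxp3+ T cells (0% to 3.23%, median 2.12%), T/Myeloid hybrids (median 1.85%) and Cd44- Cd4+ and Lef1+ Cd8+ T cells (lowest share 0).

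**Figure D5:**
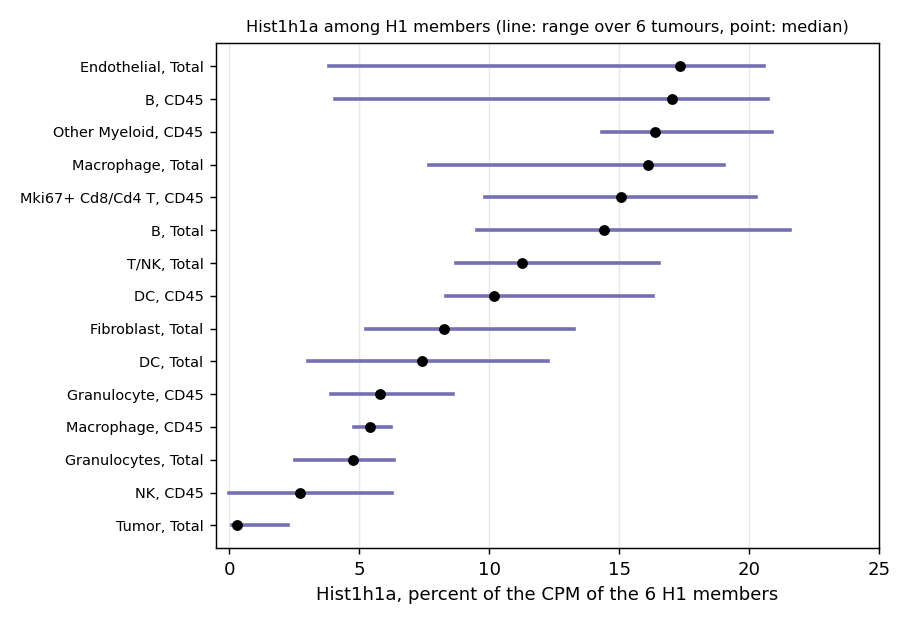
Hist1h1a as a percent of the summed H1 CPM by annotated class; points are medians and lines the range over the 6 tumours, tumours with under 50 cells of a class included. Tumour cells span 0.10% to 2.28% and macrophages of the Total libraries 7.67% to 19.0%.

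Over whole classes, 29 members were tested between tumour cells and macrophages, of which 2 were higher in tumour cells and 7 lower (background 37.5% and 37.9%). The count of lower members was 11 without EM2 and 12 with DESeq2. A gene that is high in 1 of the classes alone also passes the filter of this fit. In the same fit other cells' markers were lower in tumour cells, with 5 of 5 granulocyte (median -1.15), 4 of 6 T cell (-0.99), 4 of 5 B cell (-1.58), 4 of 5 endothelial (-2.15) and 3 of 5 fibroblast markers (-0.87). Of the ranking genes, 17 of 38 in the S list and 31 of 49 in the G2/M list were higher in tumour cells, and 6 and 2 lower. Their part in the calls of members was not tested. The higher ones were the testis gene Hist1h1t (2.00 ± 0.27, adjusted p = 8.0e-05) and the H4 gene Hist1h4a (0.99 ± 0.25, adjusted p = 0.0048). Besides Hist1h1a (-5.35), the lower ones were Hist1h3g (-1.19), Hist2h2be (-1.09), Hist2h2aa1 (-1.09), Hist1h1c (-0.88), Hist1h2af (-0.72) and Hist2h3c1 (-0.62). The leading genes Hist1h1e (0.01), Hist1h2ap (-0.42) and Hist1h2bc (0.16) did not pass.

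Macrophages of the CD45 libraries held less histone transcript than those of the Total libraries of the same tumours. Of 24 members tested, 0 were higher and 14 lower (background 22.2% higher, 19.4% lower). A member that passes the filter on low counts through the Total libraries alone adds to the count of lower ones. Hist1h1b stood at 1.91, 3.49 and 3.89 CPM (lowest, median and highest tumour) in the CD45 libraries against 13.2, 47.4 and 86.6 CPM, a log2 fold change of -3.57 ± 0.30 (adjusted p = 5.6e-06). Hist1h3c (-4.26) averaged 0.36 CPM in the CD45 libraries. It can pass the filter through the Total libraries alone, so its value is a description. Hist1h1a differed by -3.00, Hist1h2ae by -2.98, Hist1h2ap by -2.93, Hist1h2bn by -2.69 and Hist1h1e by -1.28. Hist1h2bc did not, with 32.2 to 110.3 CPM against 35.3 to 107 CPM. Of the ranking genes 34 of 38 in the S list and 45 of 49 in the G2/M list were lower too. So were markers of some other cell types: 5 of 5 tumour markers tested (median -4.06), 5 of 5 fibroblast markers (median -5.78) and 3 of 6 T cell markers (median -0.81). Of 5 granulocyte markers 1 was higher and 0 lower (median 0.34). Of 4 dendritic cell markers tested 1 was higher and 1 lower, and of 5 endothelial markers 1 was higher and 3 lower. Tumour markers summed to 3.57 to 6.46 CPM in the CD45 macrophages against 79.8 to 241 CPM in the Total ones, and fibroblast markers to 1.26 to 5.30 against 63.6 to 278 CPM. The part of such transcripts in the histone difference was not tested.

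The annotation of both library types differs, since only the CD45 libraries have an Other Myeloid class. When its cells were joined with the CD45 macrophages, a comparison added after seeing the data, 0 of 26 members were higher and 2 lower (background 15.9% and 14.6%). These were Hist1h3d (-0.69, adjusted p = 0.0105) and Hist1h3g (-0.92, adjusted p = 0.0165). Hist1h1a (-0.34, adjusted p = 0.29) and Hist1h1e (-0.11, adjusted p = 0.64) no longer passed.

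The 6 leading members of Other Myeloid cells were those of the Mki67+ T cells, and 31 of 33 members had a UMI there. Hist1h1e held 28.8% of their histone CPM, and the 6 leading genes, Hist1h1e, Hist1h2ap, Hist1h2ae, Hist1h2bn, Hist1h1b and Hist1h1a, held 92.6%. Hist1h1a was measured at 174, 290.1, 321, 237, 445 and 332 CPM in E, EM1, EM2, EM3, M and the parental tumour.

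Among CD8 T cells, the cytotoxic Gzmb+ class and the naive-type Lef1+ class were compared in the 5 tumours with at least 20 cells of both. Of the 4 members tested 1 was higher and 0 lower in Gzmb+ cells (background 6.94% and 9.50%). Hist1h1e stood at 624, 444, 474, 498 and 218 CPM in Gzmb+ cells of E, EM1, EM2, EM3 and M, and at 345, 241, 293, 294 and 120.1 CPM in their Lef1+ cells. It was higher in 5 of 5 tumours, by 0.80 ± 0.12 (adjusted p = 0.00012). The count of higher members was 2 without EM2 and 3 without M, fits in which 7 members were tested. In the same comparison 5 of 5 macrophage markers (median -0.58) and the 1 B cell marker tested (-2.32) were lower in Gzmb+ cells, and 5 of 6 T cell markers (median 0.89) and 2 of 3 NK cell markers (median 2.51) were higher. Of the ranking genes tested, 0 of 19 in the S list passed in either direction, and of 16 in the G2/M list 2 were higher and 1 lower. Macrophage markers summed to 522 to 976 CPM in Gzmb+ and to 753 to 1549 CPM in Lef1+ cells. Their part in the difference of Hist1h1e was not tested. Hist1h2bn (0.69, adjusted p = 0.18), Hist1h2ae (0.43, adjusted p = 0.34) and Hist1h2ap (0.36, adjusted p = 0.35) did not pass.

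In granulocytes the leading member differed between the library types. In the Total libraries it was Hist1h1e, with 27.6% of the histone CPM. In the CD45 libraries it was Hist1h2bc, with 124, 102, 102, 153, 143 and 148 CPM in E, EM1, EM2, EM3, M and the parental tumour, or 34.5% of the histone CPM. H2B genes took a median of 45.5% in the CD45 libraries, and H1 genes 29.1%. Hist1h1e had a median of 89.1 CPM, Hist1h2be ranged from 20.3 to 30.3 CPM and Hist1h4i from 11.1 to 28.3 CPM. Tumour markers summed to 447 to 1282 CPM in granulocytes of the Total libraries against 2.96 to 21 CPM in those of the CD45 libraries, and fibroblast markers to 272 to 1104 against 1.86 to 10.1 CPM. Their part in the change of leading member was not tested.

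Among members of at least 5 CPM in granulocytes of the Total libraries, the 5 with the highest ratio of mean CPM in granulocytes to that in tumour cells were Hist1h1a (4.92), Hist1h4i (4.66), Hist1h2be (3.20), Hist2h3c1 (2.17) and Hist1h2bc (1.37). Hist1h2bc held 101.7, 104.6, 81.8, 140.3, 155 and 126 CPM in granulocytes of the Total libraries. For Hist1h1a the means were 10.9 CPM in granulocytes and 2.21 CPM in tumour cells, and the medians 7.72 and 1.90 CPM. Hist1h1a, Hist1h4i and Hist2h3c1 averaged under 5 CPM in tumour cells, so the level admitted them through granulocytes alone.

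Between clones, ratios of tumour cells were formed as log2 of CPM plus 10 for genes with at least 50 CPM in either tumour, with no test. For M against E, 6 members met that level and 5 exceeded a log2 ratio of 1 (background 6.54% higher, 8.08% lower). These were Hist1h2bn (1.19), Hist1h1b (1.19), Hist1h2ap (1.15), Hist1h2bc (1.02) and Hist1h1e (1.01), with Hist1h2ae at 0.98. Hist1h2bn, Hist1h1b and Hist1h2ae reached 50 CPM in M alone, so the level admitted them through the tumour where they were high. Over all 36 members, with no such level, 5 exceeded the ratio and the median was -0.003. Of 5 members 1 exceeded it for EM3 against E (background 3.90% higher, 6.62% lower), Hist1h1e at 1.10, and 3 of 5 with a pseudocount of 1 in place of 10. Hist1h2bn and Hist1h2ae reached 50 CPM in EM3 alone. With no such level 1 of all 36 members exceeded the ratio for EM3 against E, and the median was -0.035.

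The largest differences were those of EM2 against E, a contrast added after seeing that these tumours held the highest and the lowest level, in which 5 of 6 members exceeded it (background 3.74% higher, 6.12% lower). Hist1h1e reached 2.26, Hist1h2ap 2.14, Hist1h1b 2.12 and Hist1h2ae and Hist1h2bn 1.96 each, while Hist1h2bc stood at -0.44. Hist1h1b, Hist1h2ae and Hist1h2bn reached 50 CPM in EM2 alone, and over all 36 members 5 exceeded the ratio with a median of 0.003. Clone E tumour cells were also the shallowest and fewest, with 758 cells and a median of 6396 UMIs, against 3273 cells and 14732 UMIs in EM2. The part of depth, or of the mitochondrial share given above, in these ratios was not tested. By the first 16 barcode bases the Total library of E goes with that of EM3 (1434 shared) and not with those of EM2 (147) or M (211). Clone and set of libraries therefore cannot be told apart in EM2 against E and M against E.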

How the data were processed

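Single-cell RNA libraries of 6 tumours were analysed from the deposited tables of UMI counts per gene and cell; the authors made them with Cell Ranger on mm10, per the submitters' processing notes, and versions are not given in the sources used here. Cell classes are the authors' deposited annotation. The histone members and the gene lists were chosen with earlier results of these data known.

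Doublets were called per library by the Scrublet method (2 simulated pairs per cell, an expected share of 6%, 2000 variable genes, 30 components), leaving 112330 cells. Counts were summed per tumour and class or cell range. Levels are CPM (counts scaled to the summed counts of the same cells), with exact Poisson or Clopper-Pearson intervals at 95%, for classes of at least 50 cells. Tests used edgeR 4.0.16 (limma 3.58.1, R 4.3.3) with TMM scaling, filterByExpr and the tumour as a block, and an adjusted p of 0.05 over all genes tested. The tumour is the same animal in both groups of each comparison. DESeq2 1.42.0 was an alternative. Cells with under 1000 UMIs were left out of shares and those with under 3000 UMIs out of cell ranges; tumour-cell ranges so lost 73 to 369 cells a tumour.

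On counts simulated with 200 changed genes, the S against low comparison (11094 genes) recovered 97% of 4-fold and 92% of 2-fold changes, with 8.70% of its 207 calls false, and Gzmb+ against Lef1+ (6308 genes) 83% and 50%, with 5% of 140 calls false.

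Single genes were named by a rule: the 3 members of each histone type with the highest CPM per coding kilobase in tumour cells, the 5 largest and 5 smallest changes of S against low, the 5 highest ratios of granulocytes to tumour cells among members of at least 5 CPM, and the genes of the lists. Members named outside it (Hist1h1c, Hist1h1t, Hist1h2bg, Hist1h3g, Hist1h4j, Hist2h2aa1, Hist2h2be, Hist1h2aa and Hist1h2ba) were chosen after their values were seen, to account for every call and exception.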

Additional observations from a re-analysis of the deposited data

Results flagged for a closer look

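For 5 members the change from low to double-high cells differed between tumour cells and macrophages of the same 6 tumours, as tested by an interaction term in edgeR with an adjusted p under 0.05 over 11794 genes. Of all genes tested 6.19% had a larger and 17.0% a smaller change in tumour cells. Among the 23 members tested the share with a smaller change was close to that of all genes. The difference, tumour cells minus macrophages on the log2 scale, was -1.32 for Hist1h2ae (adjusted p = 0.0039), -1.28 for Hist1h2ap (adjusted p = 0.0059) and -0.89 for Hist1h2bn (adjusted p = 0.047). The joint fit also gave -2.29 for Hist1h1a (adjusted p = 0.048), which did not pass the filter on low counts among tumour cells alone, so that nothing is read from it. Each of these genes was higher in double-high macrophages than in low ones in 6 of 6 tumours. The difference was 1.44 for Hist1h4i (adjusted p = 0.013) and 2.14 for Hist2h3c1 (adjusted p = 0.0019). Hist2h3c1 changed by 1.43 in tumour cells and by -0.79 in macrophages, each past the threshold, and Hist1h4i by 1.04 in tumour cells and by -0.51 in macrophages, the latter not past it (adjusted p = 0.091). Those of Hist1h1a and Hist1h2bn missed the threshold when any one of EM1, EM2, EM3, M or the parental tumour was left out, with adjusted p between 0.067 and 0.119 for Hist1h1a and between 0.089 and 0.173 for Hist1h2bn. That of Hist1h4i missed it without EM2 (adjusted p = 0.0501) or without the parental tumour (adjusted p = 0.161).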

How the results depend on the processing

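Of 314 alternatives to 44 counts and levels, 255 stayed within 1.5 times or 1 SD of the reported value and 59 did not; of 1165 for single members, 1010 kept direction and call, 138 lost and 13 gained the call and 4 reversed. The causes were not tested. Without the tumour as a block, members called fell to 0 higher (from 10) and 0 lower (from 1) in double-high against G2M, 0 lower (from 1) in double-high against low, 0 higher (from 4) and 0 lower (from 1) in S against low, 1 lower (from 16) in S against G2M and, in macrophages, 1 lower (from 3) in double-high against low and 0 lower (from 3) in S against low; the block takes same-tumour values as pairs. With no filter on low counts there were 4 higher in tumour cells against macrophages, 22 higher in double-high against low tumour cells, 7 higher and 3 lower in S against low and 3 higher in Gzmb+ cells. DESeq2 called 12 lower in tumour cells against macrophages (7 by edgeR) and 1 lower in S against low macrophages. Ranges of 10% gave 8 higher and 2 lower members in S against low tumour cells and 6 higher in macrophages, as did thinning to 1500 UMIs in macrophages (6); 5000 UMIs gave 5 lower in S against low tumour cells, and keeping doublets 4 lower there and 1 higher in macrophages. Joining Other Myeloid cells left 2 lower of 14. A pseudocount of 1 gave 3 higher for EM3 against E.

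Median histone-high shares at limits of 3 and 10 of 1000 UMIs were 6.44% and 0.29% in tumour cells, 89.8% and 70.2% in Mki67+ T cells, 37.1% and 8.31% in Other Myeloid, 7.54% and 0% in Gzmb+ T cells, 0.63% and 0% in CD45 macrophages and 1.40% and 0% in CD45 granulocytes; 3 of 1000 gave 9.99% in T/NK cells and 9.21% in CD45 B cells. At 10 of 2000 UMIs they were 11.2% in T/NK cells, 15.1% in CD45 B cells, 0% in Gzmb+ T cells, 0.0103% in CD45 macrophages and 0% in CD45 granulocytes. Without Hist1h1c, Hist1h2bc and Hist2h2be, CD45 macrophages held 156 CPM and CD45 granulocytes 233 CPM, with 0.0332% histone-high granulocytes.

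Reversed were Hist1h1d (0.12) in CD45 against Total macrophages with Other Myeloid joined, Hist1h3d (0.13) in S against low tumour cells with ranges of 10%, and Hist1h1e in S against low macrophages (0.15 at 1500 UMIs, 0.56 with ranges of 10%).

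Leaving out 1 tumour at a time gave 2 to 3 higher and 5 to 11 lower (11 without EM2) in tumour cells against macrophages, 0 to 0 and 12 to 15 in CD45 against Total macrophages, 10 to 14 and 1 to 1 in double-high against low tumour cells, 9 to 11 and 1 to 2 (2 without the parental tumour) in double-high against G2M, 3 to 5 and 1 to 2 (2 without EM1 or EM2) in S against low, 0 to 0 and 11 to 16 in S against G2M, 10 to 12 and 2 to 4 in double-high against low macrophages, 0 to 0 and 1 to 3 (1 without M) in S against low macrophages, 1 to 3 (2 without EM2, 3 without M) and 0 to 0 in Gzmb+ cells, and 1 to 2 (1 without EM2 or the parental tumour) and 2 to 5 (2 without EM1, EM2, EM3 or M) for the difference between classes. Depth limits members under about 1 CPM, the H4 genes and the Mki67+ T cells of M and the parental tumour.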
